A study of Homo sapiens with 8 samples.

Results

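Expression of HES1 and 9 other genes of the Notch pathway was followed through freezing in H9-iMSC, mesenchymal stromal cells grown from the human embryonic stem cell line H9. The 10 genes were taken by name from a deposited table of 23354 genes. They were the transcriptional effectors HES1, HES4, HEY1 and HEY2, the feedback inhibitor NRARP, the ligand JAG1, the receptors NOTCH1, NOTCH2 and NOTCH3, and RBPJ, the DNA-binding factor of the pathway. The members were chosen by name with the levels of these 8 libraries, and their differences between groups, already known. The values of these 10 genes are therefore given as a description with no test. Tests are given for 53 of 58 other genes of the pathway, those that passed the filter on low counts. That list was also drawn up with earlier results of these data known.

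The series held 8 RNA sequencing libraries. Osmolyte-frozen cells had 3 libraries, from cells held for 2 h in the solution labelled SMC and for 1 h in those labelled SGC and SGI, then frozen at 3 °C per min. DMSO-frozen cells had 2 libraries, from cells held in DMSO for 1 h or 0 h and frozen at 1 °C per min. Fresh, unfrozen cells had 3 libraries, from cells held for 1 h with DMSO, for 1 h in medium, and taken at 0 h. All cells were of the same line, grown on gelatin in serum-containing medium and used at passages 8 to 12, and frozen cells were thawed before RNA isolation. Each condition had 1 library, so a group joined libraries of differing conditions, and the labels do not say whether they came from separate cultures; p-values measure only the spread between these libraries, which may be technical. The freezing solution and the cooling rate went together and cannot be told apart. Hold times also differed between the 2 frozen groups, and no osmolyte-frozen library was held for 0 h. No unfrozen library in SMC, SGC or SGI was analysed here.

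Library totals ran from 41198716 to 51166666 counts, and all of the 8 stromal markers looked for were detected in every group. Their summed level was 7528 to 8489 CPM (counts scaled to each library's size and composition) in osmolyte-frozen, 10413 in both DMSO-frozen and 9955 to 10563 CPM in fresh libraries, most of it ITGB1 and VIM. Of the 8, THY1 and VIM were higher in osmolyte-frozen than in DMSO-frozen libraries, and PDGFRB overlapped. THY1 had 261.1 to 299.8 CPM in osmolyte-frozen and 239.6 to 240.6 CPM in DMSO-frozen libraries. VIM had 2323.1 to 2520.3 CPM in osmolyte-frozen and 2121.8 to 2222.3 CPM in DMSO-frozen libraries. PDGFRB had 304.5 to 355.9 CPM in osmolyte-frozen and 353.0 to 394.9 CPM in DMSO-frozen libraries. The 6 haematopoietic markers summed to 2.26 to 2.59 CPM in osmolyte-frozen, 1.70 to 2.05 CPM in DMSO-frozen and 1.86 to 2.33 CPM in fresh libraries, most of it CD34, with HLA-DRA at 0 throughout. The 4 pluripotency markers summed to 6.26 to 8.75 CPM in osmolyte-frozen, 3.75 to 3.85 CPM in DMSO-frozen and 4.22 to 5.01 CPM in fresh libraries. The 5 smooth muscle and pericyte markers summed to 465 to 539 CPM in osmolyte-frozen, 415 to 466 CPM in DMSO-frozen and 388 to 442.5 CPM in fresh libraries, and the sum joined genes that went opposite ways. ACTA2 had 147.1 to 172.0 CPM in osmolyte-frozen, 59.2 to 59.8 CPM in DMSO-frozen and 42.5 to 43.9 CPM in fresh libraries. RGS5 had 60.5 to 84.8 CPM in osmolyte-frozen, 45.2 to 48.1 CPM in DMSO-frozen and 26.0 to 30.8 CPM in fresh libraries. CSPG4 had 252.6 to 300.6 CPM in osmolyte-frozen, 305.7 to 358.5 CPM in DMSO-frozen and 312.6 to 372.2 CPM in fresh libraries. The 4 endothelial markers summed to 39.3 to 45.3 CPM in osmolyte-frozen, 49.4 to 53.8 CPM in DMSO-frozen and 34.9 to 44.4 CPM in fresh libraries, most of it TEK, and the 2 epithelial markers summed to 2.26 to 3.13 CPM in osmolyte-frozen, 1.85 to 2.14 CPM in DMSO-frozen and 0.984 to 1.60 CPM in fresh libraries. The part of these markers in the results below was not tested.

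Notch receptors are cut when a ligand on a neighbouring cell binds them, and the freed intracellular domain enters the nucleus, joins RBPJ on DNA and recruits Mastermind coactivators. HES and HEY genes, which encode basic helix-loop-helix repressors, are the best known targets, and HES1 protein represses its own gene. The HES1 transcript is also unstable, so its level can change quickly. In mesenchymal cells the pathway is known for holding back differentiation. HES1 is also turned on by serum and by other signals that do not pass through Notch.

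The promoters of HES1, HES4 and NRARP are shown as those of 3 target genes of the pathway that passed the filter on low counts, and this choice was made with their levels known. The sequences are the 250 bases before each start site, from RefSeq on build GRCh38.p14, which differs from the hg19 build of the counts. They run 5′ to 3′ on the gene's strand, and capitals mark TGGGAA, the core of the RBPJ motif.
HES1 (chr3:194135898-194136147, + strand): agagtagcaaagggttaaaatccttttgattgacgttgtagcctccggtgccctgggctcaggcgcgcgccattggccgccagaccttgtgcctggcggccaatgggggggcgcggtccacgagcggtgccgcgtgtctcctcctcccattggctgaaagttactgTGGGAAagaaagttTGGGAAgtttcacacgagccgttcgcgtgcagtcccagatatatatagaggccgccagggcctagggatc
HES4 (chr1:1000098-1000347, - strand): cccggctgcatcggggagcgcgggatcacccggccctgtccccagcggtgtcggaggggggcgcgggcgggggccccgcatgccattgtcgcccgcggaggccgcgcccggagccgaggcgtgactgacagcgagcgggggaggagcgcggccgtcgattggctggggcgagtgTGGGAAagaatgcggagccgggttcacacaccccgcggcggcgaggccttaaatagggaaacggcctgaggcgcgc
NRARP (chr9:137302272-137302521, - strand): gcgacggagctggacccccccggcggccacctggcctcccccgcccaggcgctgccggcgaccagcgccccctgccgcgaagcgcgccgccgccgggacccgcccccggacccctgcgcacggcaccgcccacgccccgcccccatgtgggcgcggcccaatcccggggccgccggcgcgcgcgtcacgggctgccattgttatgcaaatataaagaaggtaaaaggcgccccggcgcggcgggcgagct

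The HES1 window held the RBPJ core at 84 to 79 and again at 70 to 65 bases before the start, both on the gene's strand. The HES4 window held it once, at 76 to 71 bases before the start. The longest run of letters common to both windows, tgTGGGAAagaa, is 12 bases long and contains the core. It lies 86 to 75 bases before the HES1 start and 78 to 67 bases before the HES4 start. Runs shared by other pairs of windows were not searched, so its length has no reference. The core was not found in the NRARP window. Searched on both strands, the core was in 20.8% of 35116 promoter windows of the same length, and the longer form GTGGGAA, which overlaps it and is in both HES windows, was in 5.43%. The N-box CACNAG, a motif bound by HES proteins, was found 3 times in the HES1 window, not in the HES4 or NRARP window, and in 32.0% of all windows. The letters TATAAA were in the NRARP window and in 10.7% of all. Of the 10 genes, 9 matched the promoter table, with 13 promoters. Among those not shown, the core and its longer form were also in the window of HEY2, a gene near the limit of detection, and 2 times in that of the second RBPJ start site, while the windows of JAG1, NOTCH1, NOTCH2, NOTCH3 and the other RBPJ start sites held neither.

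HES1 had the widest range of the 8 genes that passed the filter on low counts. Its level was 20.1 CPM in SMC, 38.1 CPM in SGC and 21.5 CPM in SGI among osmolyte-frozen libraries. It was 5.11 CPM in cells frozen after 1 h in DMSO and 4.61 CPM at 0 h. In fresh cells it was 3.87 CPM after 1 h with DMSO, 79.7 CPM after 1 h in medium and 10.2 CPM at 0 h. The 3 libraries with DMSO were the lowest of the 8, at 3.87 to 5.11 CPM, against 10.2 to 79.7 CPM in the 5 without it. The gene lies on chromosome 3 from 193853931 to 193856401 in hg19.

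**Figure D1:**
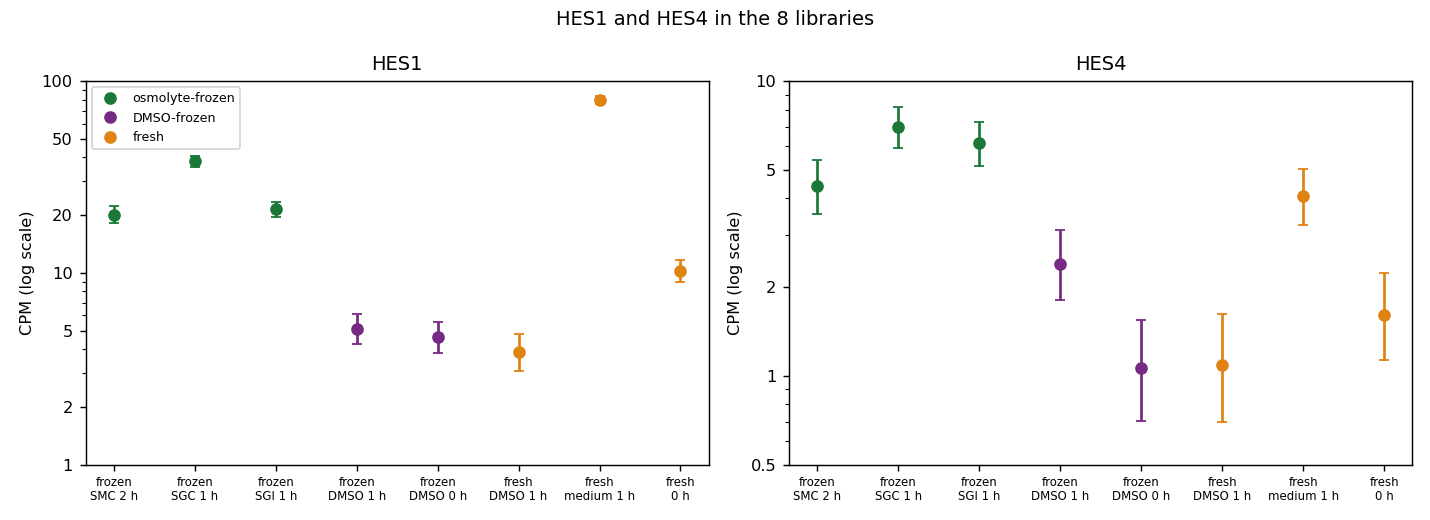
CPM of HES1 (left) and HES4 (right) on log axes in each of the 8 libraries, with exact 95% Poisson intervals that cover counting error only; colours mark osmolyte-frozen, DMSO-frozen and fresh libraries. HES1 lies at 3.87 to 5.11 CPM in the 3 libraries with DMSO and at 79.7 CPM in fresh cells after 1 h in medium.

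The order of the levels rested on counts of 170 to 3286 per library. By exact 95% Poisson intervals, which cover counting error only, the 3 libraries with DMSO could not be separated from each other, with intervals of 3.09 to 4.78 CPM for fresh 1 h DMSO, 3.82 to 5.53 CPM for frozen 0 h DMSO and 4.23 to 6.13 CPM for frozen 1 h DMSO. Fresh 0 h came next, at 8.92 to 11.6 CPM. SMC, held for 2 h, was at 18.2 to 22.2 CPM. Of the 2 solutions held for 1 h, SGC, at 35.6 to 40.7 CPM, stood above SGI, at 19.6 to 23.5 CPM. Fresh cells after 1 h in medium were highest, at 75.9 to 83.6 CPM. The highest library was 20.6-fold above the lowest, where the median of the tested genes was 1.52-fold.

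Between single libraries, which have no replicate check, HES1 was 20.6-fold lower in fresh cells held 1 h with DMSO than in those held 1 h in medium (95% counting interval 16.6 to 25.9). The same DMSO library was 2.64-fold below fresh 0 h (2.05 to 3.43). Held 1 h in medium, fresh cells had 7.81-fold more HES1 than at 0 h (6.80 to 9.01). Cells frozen after 1 h in DMSO had 1.32 times the level of unfrozen cells after 1 h in DMSO (0.992 to 1.77), and 1.11 times that of cells frozen at 0 h (0.850 to 1.44). SGC was 1.77-fold above SGI at the same hold of 1 h (1.58 to 1.98).

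HES4, the other HES family repressor on the list, is on chromosome 1 from 934342 to 935552 in hg19. Its level was 4.40 CPM in SMC, 6.97 CPM in SGC and 6.14 CPM in SGI. It was 2.40 CPM in cells frozen after 1 h in DMSO and 1.06 CPM in those frozen at 0 h. Fresh cells had 1.09 CPM after 1 h with DMSO, 4.07 CPM after 1 h in medium and 1.61 CPM at 0 h. As with HES1, the osmolyte-frozen libraries lay above both DMSO-frozen ones, and within fresh cells the 1 h medium library was highest and the DMSO library lowest. For HES4 the ratio of fresh 1 h DMSO to fresh 0 h was 0.678, and its counting interval, 0.387 to 1.17, included equal levels. Unlike HES1, every osmolyte-frozen library lay above every fresh one, and the libraries with DMSO, at 1.06 to 2.40 CPM, overlapped those without, at 1.61 to 6.97 CPM. However, the counting intervals of SMC, 3.54 to 5.41 CPM, and of fresh 1 h medium, 3.25 to 5.04 CPM, overlapped. HES4 was 3.73-fold lower in fresh cells after 1 h with DMSO than after 1 h in medium (95% counting interval 2.35 to 6.15). It was 2.26-fold higher in cells frozen in DMSO after 1 h than at 0 h (1.40 to 3.72), a pair in which HES1 counting intervals overlapped.

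HES1 and HES4 were the 2 members at least 2-fold lower in fresh 1 h DMSO than in fresh 1 h medium, where 0.636% of the 15564 tested genes were that much lower, counting only genes whose higher library had 50 counts or more, and 0.386% that much higher. The same 2 genes were at least 2-fold higher in fresh 1 h medium than in fresh 0 h, against 0.347% of tested genes. HES4 alone of the members was at least 2-fold higher in frozen 1 h DMSO than in frozen 0 h DMSO, against 0.199% of tested genes, and than in fresh 1 h DMSO, against 0.52%. Between SGC and SGI no member differed by that much, where 0.103% of tested genes were higher in SGC and 0.334% lower. HES1 alone was at least 2-fold lower in fresh 1 h DMSO than in fresh 0 h, against 0.411% of tested genes lower and 0.186% higher. Nothing is read from setting the members against these shares, since the members were chosen with their levels known.

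HEY1 and HEY2, repressors related to the HES family and best known from vessels and heart, were near the limit of detection and did not pass the filter on low counts. HEY1 had 12, 4 and 8 counts in SMC, SGC and SGI, 6 and 8 in frozen 1 h and 0 h DMSO, and 8, 30 and 0 in fresh 1 h DMSO, 1 h medium and 0 h. Its highest value, 0.728 CPM, was in the fresh 1 h medium library, where HES1 was also highest, with a counting interval of 0.407 to 1.20 CPM. From 8 and 30 counts, HEY1 was 4.0-fold lower in fresh 1 h DMSO than in fresh 1 h medium (95% counting interval 1.27 to 16.6). HEY2 had at most 8 counts in any library and 0 in 3 of them.

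NRARP, a small ankyrin-repeat protein that binds the Notch transcription complex and limits it, was low in every library. It had 1.52, 1.12 and 1.61 CPM in SMC, SGC and SGI. It had 1.31 and 1.30 CPM in frozen 1 h and 0 h DMSO. In fresh cells it had 0.773 CPM after 1 h with DMSO, 1.36 CPM after 1 h in medium and 0.895 CPM at 0 h. The 3 groups overlapped, and in the fresh 1 h pair the counting interval of the ratio of DMSO to medium, 0.292 to 1.08, included equal levels.

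The transcripts of the ligand, receptors and RBPJ varied far less. The authors' deposited RPKM values are per kilobase of a length labelled coding length. They put NOTCH2 highest, with a mean over the 8 libraries of 20 RPKM (13.1 to 25.7 RPKM). RBPJ followed at 16.1, HES1 at 10.4, JAG1 at 8.78 and NOTCH3 at 3.87 RPKM. Means were 2.60 RPKM for NOTCH1, 2.24 RPKM for HES4 and 0.321 RPKM for NRARP. In SGC and in fresh 1 h medium, HES1 itself, at 17.1 and 36.1 RPKM, exceeded the NOTCH2 values there, in fresh 1 h medium well above the highest NOTCH2 value of any library, 25.7 RPKM. The highest library was 1.20-fold above the lowest for JAG1, 1.29-fold for NOTCH1, 1.5-fold for NOTCH3, 1.51-fold for RBPJ and 1.82-fold for NOTCH2.

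**Figure D2:**
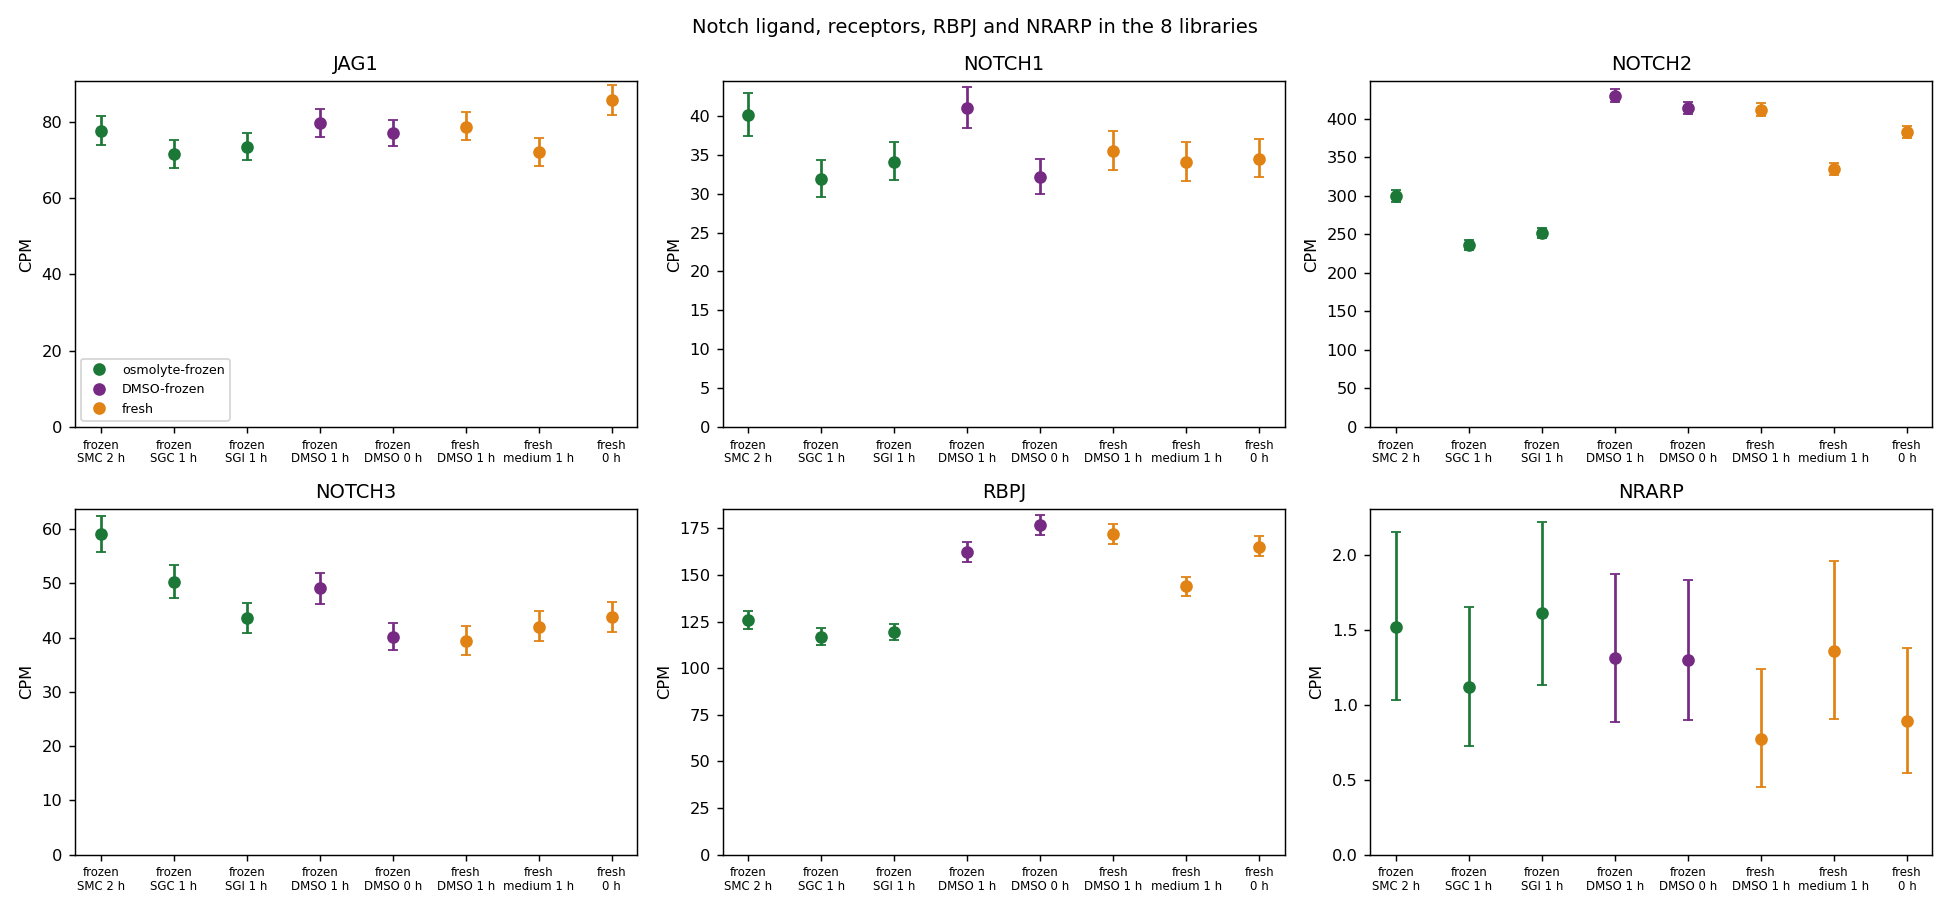
CPM of JAG1, NOTCH1, NOTCH2, NOTCH3, RBPJ and NRARP in each of the 8 libraries, on linear axes from 0, with exact 95% Poisson intervals that cover counting error only. NOTCH2 and RBPJ are lowest in the 3 osmolyte-frozen libraries, and JAG1 spans 71.5 to 85.7 CPM.

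NOTCH2, the most abundant receptor transcript, was lowest in osmolyte-frozen cells. It had 299.5 CPM in SMC, 236 CPM in SGC and 252 CPM in SGI. DMSO-frozen cells had 430.1 CPM at 1 h and 414 CPM at 0 h, and fresh cells had 412 CPM after 1 h with DMSO, 335 CPM after 1 h in medium and 383 CPM at 0 h. No osmolyte-frozen library reached any other library, and the 3 libraries with DMSO were the highest of the 8. The fitted log2 change was -0.69 (SE 0.10) for osmolyte-frozen over DMSO-frozen and -0.52 (SE 0.09) for osmolyte-frozen over fresh cells. NOTCH2, on chromosome 1 from 120454176 to 120612317 in hg19, shares near-identical sequence with NOTCH2NL, and how reads were divided between them is not given in the sources used here. NOTCH2NL had 36.9 ± 5.93 CPM in osmolyte-frozen (SD, n = 3), 48.7 ± 1.72 CPM in DMSO-frozen (SD, n = 2) and 46.6 ± 10.8 CPM in fresh libraries (SD, n = 3).

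RBPJ, which binds DNA with or without the receptor's intracellular domain and represses in its absence, had a like order. Its level was 126 CPM in SMC, 117 CPM in SGC and 119 CPM in SGI. It was 162 CPM in frozen 1 h DMSO and 177 CPM in frozen 0 h DMSO. Fresh cells had 172 CPM after 1 h with DMSO, 144 CPM after 1 h in medium and 165 CPM at 0 h. The 3 osmolyte-frozen libraries were again the lowest, and fresh 1 h medium, where HES1 was highest, was the lowest of the other 5. The log2 change was -0.49 (SE 0.09) for osmolyte-frozen over DMSO-frozen and -0.41 (SE 0.08) for osmolyte-frozen over fresh cells. RBPJ has processed copies in the genome with which reads may be shared.

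JAG1, a ligand presented on the cell surface, had 77.7, 71.5 and 73.4 CPM in SMC, SGC and SGI. It had 79.6 and 77.0 CPM in frozen 1 h and 0 h DMSO. Fresh cells had 78.7 CPM after 1 h with DMSO, 72.0 CPM after 1 h in medium and 85.7 CPM at 0 h. The groups overlapped, with a log2 change of -0.08 (SE 0.09) for osmolyte-frozen over DMSO-frozen cells.

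NOTCH1 had 35.4 ± 4.29 CPM in osmolyte-frozen (SD, n = 3), 36.7 ± 6.27 CPM in DMSO-frozen (SD, n = 2) and 34.7 ± 0.754 CPM in fresh libraries (SD, n = 3). Its groups overlapped, and among DMSO-frozen cells the 1 h library, at 41.1 CPM, was 1.28-fold above the 0 h library (95% counting interval 1.16 to 1.40). NOTCH3, a receptor prominent in pericytes and vascular smooth muscle, had 59.1, 50.3 and 43.6 CPM in SMC, SGC and SGI, 49.1 and 40.1 CPM in frozen 1 h and 0 h DMSO, and 39.3, 42.0 and 43.8 CPM in fresh 1 h DMSO, 1 h medium and 0 h. SMC and SGC were the highest, while SGI lay within the fresh range. The log2 change of NOTCH3 was 0.29 (SE 0.10) for osmolyte-frozen over fresh cells.

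**Figure D3:**
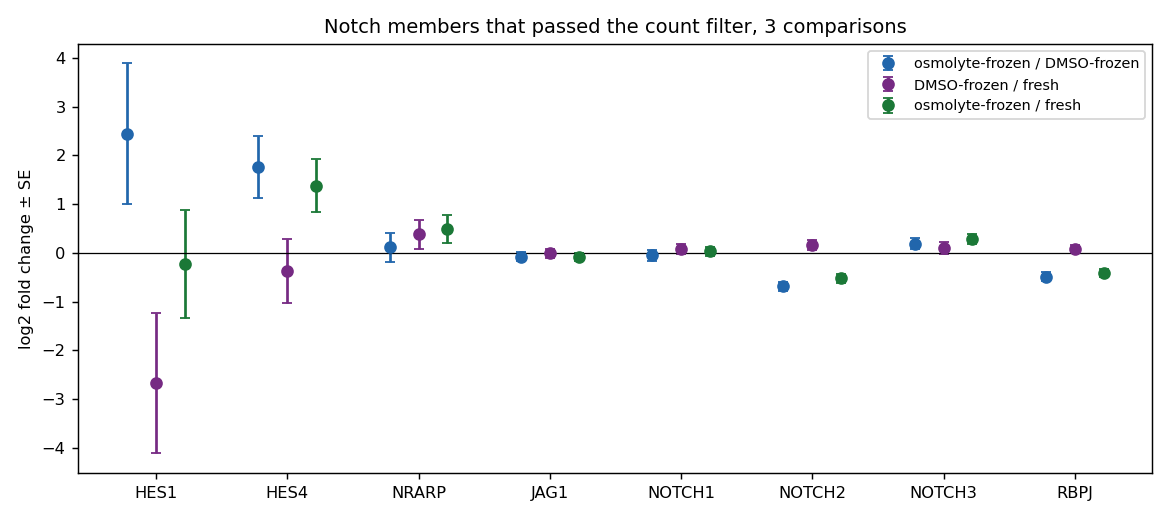
Log2 fold change with its standard error (edgeR, 3 groups) for the 8 of 10 genes that passed the filter on low counts, in the 3 comparisons. HES1 has standard errors of 1.10 to 1.44, and NOTCH2 and RBPJ lie below 0 in both comparisons of osmolyte-frozen cells.

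Over the groups, HES1 averaged 26.6 ± 10.0 CPM in osmolyte-frozen (SD, n = 3), 4.86 ± 0.354 CPM in DMSO-frozen (SD, n = 2) and 31.3 ± 42.1 CPM in fresh libraries (SD, n = 3). The log2 change was 2.45 (SE 1.44) for osmolyte-frozen over DMSO-frozen, whose libraries did not overlap, -2.68 (SE 1.44) for DMSO-frozen over fresh and -0.23 (SE 1.10) for osmolyte-frozen over fresh. The fresh 1 h medium library decided these last 2 values: without it they were -0.53 and 1.91. HES4 averaged 5.84 ± 1.31 CPM in osmolyte-frozen (SD, n = 3), 1.73 ± 0.947 CPM in DMSO-frozen (SD, n = 2) and 2.26 ± 1.59 CPM in fresh libraries (SD, n = 3). Its log2 change was 1.76 (SE 0.64) for osmolyte-frozen over DMSO-frozen and 1.38 (SE 0.55) for osmolyte-frozen over fresh.

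Between osmolyte-frozen and DMSO-frozen cells, libraries of 4 of the 8 members did not overlap, HES1 and HES4 higher and NOTCH2 and RBPJ lower, where 29.1% of the 15564 tested genes did not overlap and were higher, 27.7% lower and 56.8% in all. Between osmolyte-frozen and fresh cells, libraries of HES4, higher, and of NOTCH2 and RBPJ, lower, did not overlap, against 24.8% of all genes higher, 24.8% lower and 49.6% in all. Between DMSO-frozen and fresh cells, libraries of NOTCH2 alone, higher, did not overlap, against 16.0% of all genes higher and 31.4% in either direction. Since the members were chosen with these differences known, nothing is read from these counts. Both comparisons of osmolyte-frozen cells share the same 3 osmolyte libraries. The fit draws 1 spread per gene from all 3 groups, so the wide range of HES1 and HES4 in fresh cells entered their standard errors everywhere.

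The other pathway genes were compared between osmolyte-frozen and DMSO-frozen cells, which differed in solution, cooling rate and hold times. The list was drawn up with earlier results of these data known, so its calls and their number are not independent evidence. Of 58, 53 passed the filter on low counts; DLL4, HES5, HES7, HEYL and DTX1 had at most 10 counts in any library. In osmolyte-frozen over DMSO-frozen cells, 10 rose and 16 fell by edgeR at an adjusted p of 0.05, with a median log2 change of -0.12, against 13.6% rising, 16.5% falling and 30.1% in either direction, and a median of 0.04, over all tested genes. Scaled by library totals alone, 11 of the 53 rose and 12 fell, and over all tested genes 2571 rose and 1985 fell, against 2121 and 2563 with the main scaling. The total of 26 was 10 without frozen 0 h DMSO, a fit in which 1 DMSO-frozen library remained and its spread was taken from the other groups. In a bulk sample, fewer cells of a type and less RNA per cell cannot be told apart.

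Among genes of receptor glycosylation, 2 of 5 rose and 1 fell, where 13.6% of all tested genes rose and 16.5% fell. LFNG encodes the lunatic fringe glycosyltransferase, which adds sugars to Notch receptors and changes which ligands they answer to. It had 15.5, 15 and 14.8 CPM in SMC, SGC and SGI, and 6.34 and 5.52 CPM in frozen 1 h and 0 h DMSO. Fresh cells had 5.59, 5.87 and 5.15 CPM after 1 h with DMSO, after 1 h in medium and at 0 h. The 3 osmolyte-frozen libraries stood together above the other 5, at 2.55-fold over DMSO-frozen cells (log2 change 1.35, SE 0.13, adjusted p = 5.59e-07 by edgeR). RFNG, radical fringe, rose 1.26-fold. POFUT1, which adds the fucose that fringe proteins extend, fell 1.40-fold, at 143 ± 4.05 CPM in osmolyte-frozen (SD, n = 3) and 200 ± 3.37 CPM in DMSO-frozen libraries (SD, n = 2; adjusted p = 0.000140 by edgeR).

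Among genes of receptor cleavage, 4 of 9 fell and 1 rose, where 16.5% of all tested genes fell and 13.6% rose. ADAM10, the protease that makes the first ligand-dependent cut, fell 1.63-fold, at 122.5 ± 7.11 CPM in osmolyte-frozen (SD, n = 3) and 200 ± 5.24 CPM in DMSO-frozen libraries (SD, n = 2; adjusted p = 3.51e-05 by edgeR). ADAM17, a related protease, fell 1.33-fold, FURIN, which cleaves the receptor on its way to the surface, 1.25-fold, and NCSTN, a subunit of gamma-secretase, 1.21-fold. PSEN2, a catalytic subunit of gamma-secretase, rose 1.31-fold.

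Among 5 ligands tested, JAG2 rose 2.84-fold, at 2.50, 2.01 and 1.70 CPM in SMC, SGC and SGI and 0.699 and 0.749 CPM in frozen 1 h and 0 h DMSO (adjusted p = 0.00164 by edgeR). DLK1, a non-canonical ligand, fell 4.74-fold, with 6, 2 and 10 counts in SMC, SGC and SGI and 22 and 42 in frozen 1 h and 0 h DMSO, and lost its call without frozen 0 h DMSO (adjusted p = 0.123 by edgeR). Of the other targets, HES6, a relative of HES1 known to oppose it, rose 1.97-fold, at 4.60, 4.42 and 4.09 CPM in SMC, SGC and SGI and 2.62 and 1.81 CPM in frozen 1 h and 0 h DMSO (adjusted p = 0.00151 by edgeR). Without frozen 0 h DMSO its adjusted p was 0.0552 by edgeR. In fresh cells HES6 had 1.59 CPM after 1 h with DMSO, 1.46 CPM after 1 h in medium and 1.52 CPM at 0 h, with overlapping counting intervals.

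Among 11 genes of ubiquitin ligation and trafficking, 4 rose and 1 fell, where 13.6% of all tested genes rose and 16.5% fell. MIB2, a ligase that acts on ligands, rose 1.52-fold (adjusted p = 0.00267 by edgeR), and DTX4, of the Deltex family, 1.63-fold. NEURL rose 2.29-fold, from 14 and 16 counts in frozen 1 h and 0 h DMSO to 30, 32 and 32 in SMC, SGC and SGI. DTX3 rose 1.19-fold, while ITCH, a ligase that acts on the receptor, fell 1.31-fold. MIB1, which acts on ligands like MIB2, had 96.5 ± 19.2 CPM in osmolyte-frozen (SD, n = 3) and 142 ± 4.04 CPM in DMSO-frozen libraries (SD, n = 2) and did not pass (adjusted p = 0.0662 by edgeR). Of 7 nuclear coactivators 5 fell and 0 rose, against the same shares of all tested genes, and of these 5 only MAML3 held under all 13 alternatives below. Nothing is read from the counts by role, since the list was drawn up with earlier results known. MAML3, a Mastermind protein, fell 1.38-fold (adjusted p = 0.00424 by edgeR), MAML2 1.27-fold, the acetyltransferases KAT2B 1.32-fold, EP300 1.31-fold and CREBBP 1.20-fold. Of 12 corepressors 4 fell and 1 rose: TLE1, a Groucho family protein that HES factors recruit, fell 1.51-fold (adjusted p = 0.000540 by edgeR), NCOR1 1.34-fold, SPEN 1.24-fold and TLE4 1.18-fold, and TLE2 rose 1.83-fold.

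**Figure D4:**
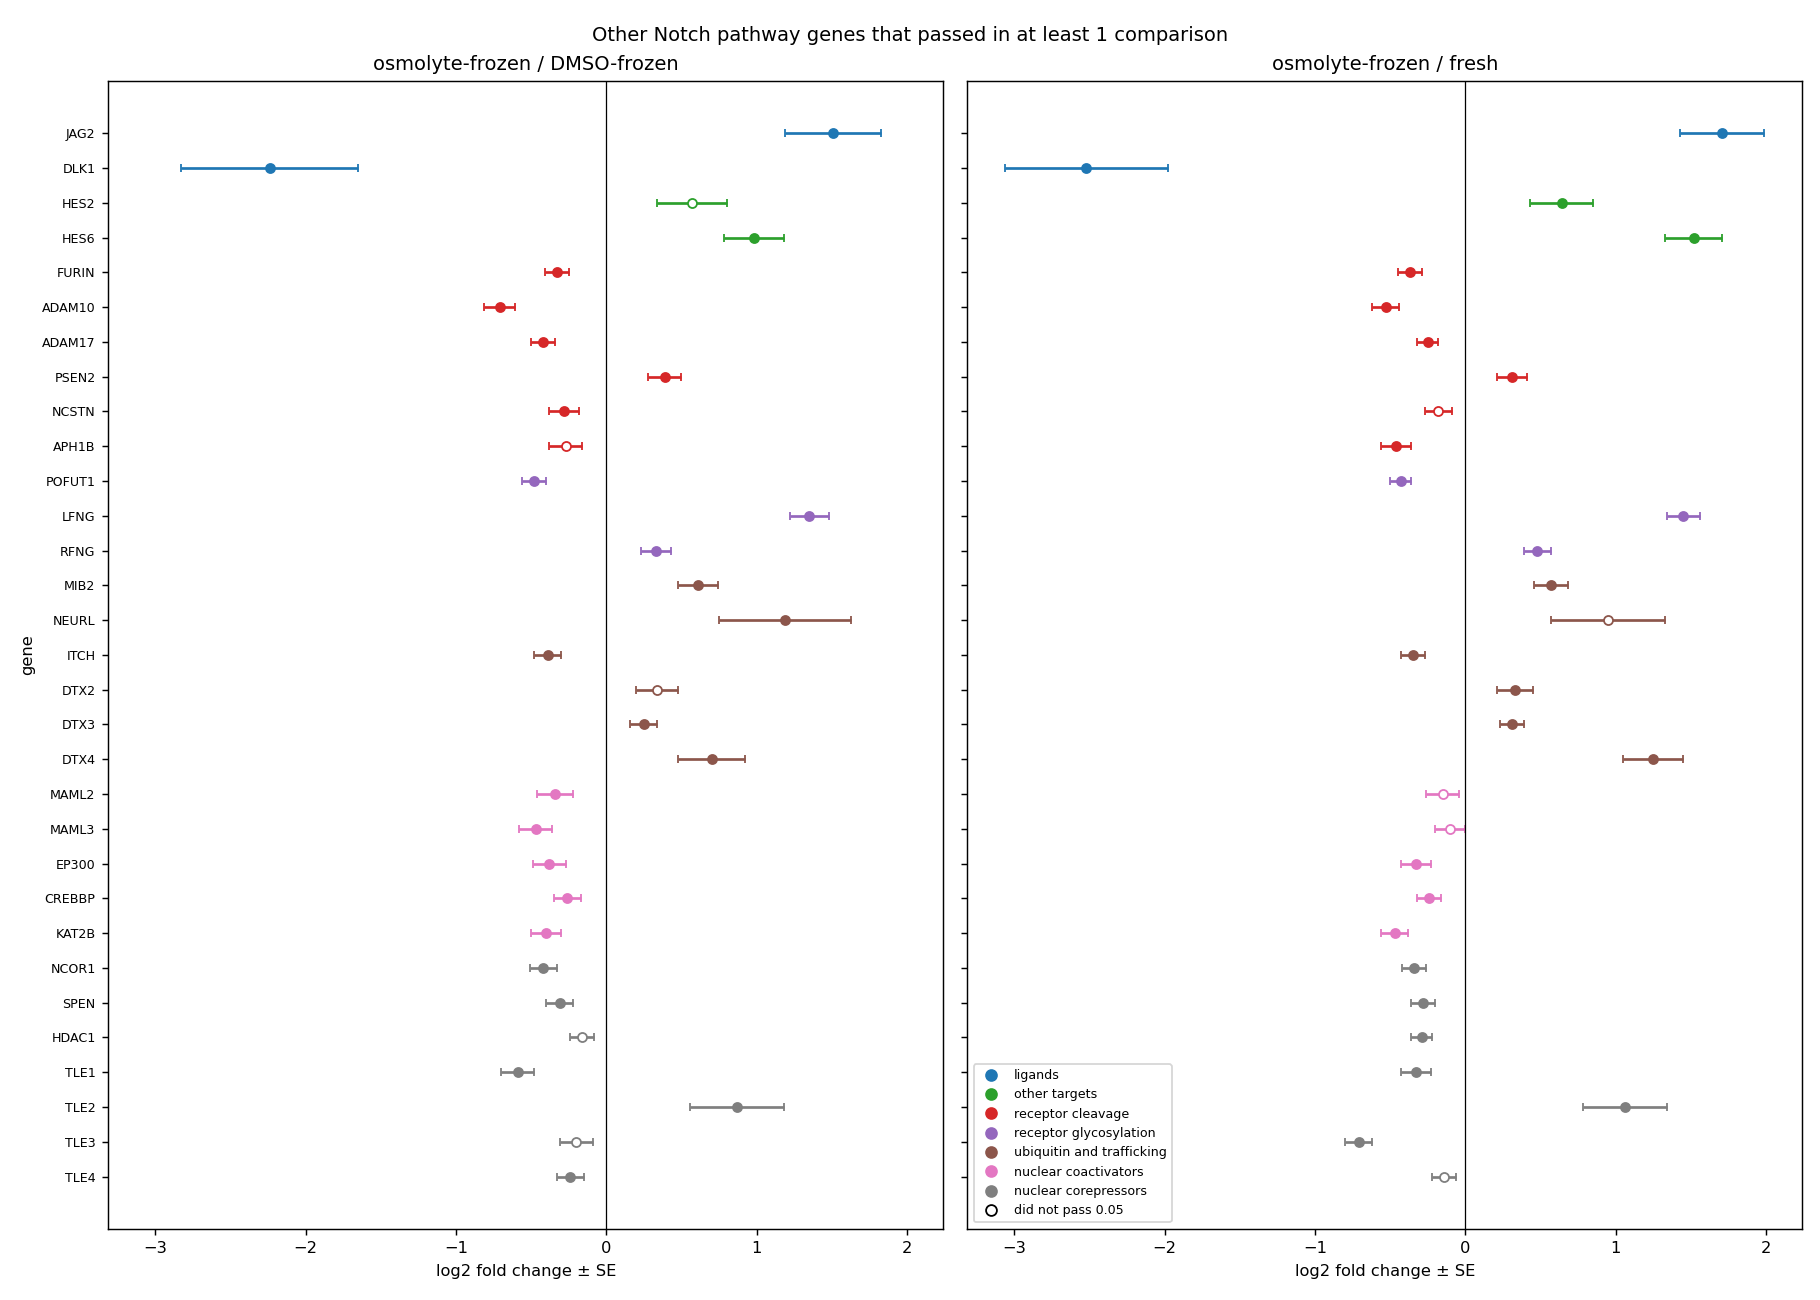
Log2 fold change with its standard error (edgeR, 3 groups) of the 31 other pathway genes that passed an adjusted p of 0.05 in at least 1 of the 3 comparisons, for osmolyte-frozen over DMSO-frozen cells (left) and over fresh cells (right), coloured by role; filled points passed in the comparison shown. LFNG and JAG2 lie above 1 in both panels, and 5 nuclear coactivators are filled below 0 on the left. In that comparison 16.5% of all tested genes fell, and of these 5 only MAML3 held under all 13 alternatives.

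Of these 26 calls, 9 held under all 13 alternatives tried, namely JAG2, LFNG, MIB2, ADAM10, ADAM17, POFUT1, MAML3, NCOR1 and TLE1. The other 17 lost the threshold under at least 1 of them. With all 8 libraries kept, NCSTN, MAML2, CREBBP and TLE4 lost it under library totals alone. MAML2 and TLE4 also lost it with no robust estimation. NEURL lost it with DESeq2, and NEURL and DTX3 with no filter on low counts. NEURL lost it under 9 of the 13 alternatives, TLE4 under 7, DTX3 and MAML2 under 6 each, and the rest under 1 to 5. Without frozen 0 h DMSO the adjusted p by edgeR was 0.116 for PSEN2, 0.182 for NCSTN, 0.32 for RFNG, 0.183 for NEURL, 0.0886 for ITCH, 0.18 for DTX3, 0.208 for DTX4, 0.227 for MAML2, 0.077 for KAT2B and 0.265 for TLE2. Without frozen 1 h DMSO it was 0.158 for FURIN, 0.141 for EP300, 0.257 for CREBBP and 0.102 for SPEN, and without SGI it was 0.176 for TLE4. These were the highest adjusted p-values of each gene over the 13 alternatives.

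Set against fresh cells, osmolyte-frozen cells had 11 of the 53 genes higher and 15 lower by edgeR, against 19.1% higher, 21.0% lower and 40.1% in either direction of all tested genes, with a median log2 change of -0.10 against 0.02. LFNG was 2.73-fold higher (adjusted p = 1.23e-08 by edgeR), JAG2 3.26-fold, HES6 2.86-fold, DTX4 2.37-fold and TLE2 2.08-fold. TLE3, another Groucho family corepressor, fell 1.64-fold, at 20.7 ± 1.37 CPM in osmolyte-frozen and 33.9 ± 3.18 CPM in fresh libraries (SD, n = 3 each; adjusted p = 9.90e-06 by edgeR). ADAM10 fell 1.44-fold, POFUT1 1.35-fold, APH1B, a gamma-secretase subunit, 1.38-fold, KAT2B 1.38-fold and HDAC1, a histone deacetylase, 1.22-fold. DLK1 fell 5.72-fold, with at most 10 counts in an osmolyte-frozen and 20 to 58 in a fresh library. MIB2, RFNG and DTX3 also rose, and FURIN, ADAM17, ITCH and NCOR1 also fell. These 19 held under all 13 alternatives. The other 7 were HES2, PSEN2 and DTX2, higher, and EP300, CREBBP, SPEN and TLE1, lower. They lost the threshold when 1 library was left out: EP300, CREBBP, SPEN and TLE1 without SGC, HES2, DTX2, EP300 and CREBBP without SGI, DTX2 without SMC, DTX2, EP300, CREBBP and SPEN without fresh 1 h DMSO, HES2 without fresh 1 h medium, and PSEN2 and DTX2 without fresh 0 h, with adjusted p-values by edgeR of up to 0.178. DTX2 also lost it with no robust estimation of the spread. DMSO-frozen cells differed from fresh cells in 1 of the 53, TLE3, which fell 1.43-fold, at 23.7 ± 2.95 CPM in DMSO-frozen (SD, n = 2) and 33.9 ± 3.18 CPM in fresh libraries (SD, n = 3; adjusted p = 0.0122 by edgeR). Without frozen 0 h DMSO its adjusted p was 0.29 by edgeR. The background in that comparison was 0.617% of tested genes falling and 1.87% in either direction.

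The genes whose levels ran most like HES1 over the 8 libraries were sought among 10699 genes with a mean of at least 5 CPM. The libraries share a line but differ in state, solution and hold time, with 1 library per condition. The Pearson correlation of log2 CPM is therefore a description only. The 10 highest were PIM1 at 0.994, BHLHE40 at 0.981, MYC at 0.980, ATF5 at 0.978, CCNL1 at 0.976, RPS10 at 0.967, TRIB1 at 0.965, LIF at 0.963, SFI1 at 0.962 and FTSJ1 at 0.958. BHLHE40 encodes a basic helix-loop-helix repressor, PIM1 a kinase, MYC a growth-promoting transcription factor and LIF a cytokine. By rank correlation 4 of the 10 were kept in the first 10 places, namely MYC, ATF5, CCNL1 and SFI1. LIF and FTSJ1 ranked 12, BHLHE40 33, PIM1 and TRIB1 59, and RPS10 157. HES4 had a correlation of 0.815 with HES1 and ranked 362 among the 15563 other tested genes, NRARP 0.427, NOTCH3 0.287, NOTCH1 -0.258, JAG1 -0.665, NOTCH2 -0.730 and RBPJ -0.736.

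BHLHE40 had 78.7, 120 and 81.9 CPM in SMC, SGC and SGI, and 34.9 and 34.6 CPM in frozen 1 h and 0 h DMSO. It had 36.2 CPM in fresh 1 h DMSO, 156 CPM in fresh 1 h medium and 41.6 CPM in fresh 0 h. PIM1 had 50.7, 59.1 and 50.3 CPM in SMC, SGC and SGI, 27.8 and 29.1 CPM in frozen 1 h and 0 h DMSO, and 28.8, 82.3 and 39.1 CPM in fresh 1 h DMSO, 1 h medium and 0 h. In both genes, as in HES1, the 3 libraries with DMSO were lowest and fresh 1 h medium was highest, over a narrower range.

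**Figure D5:**
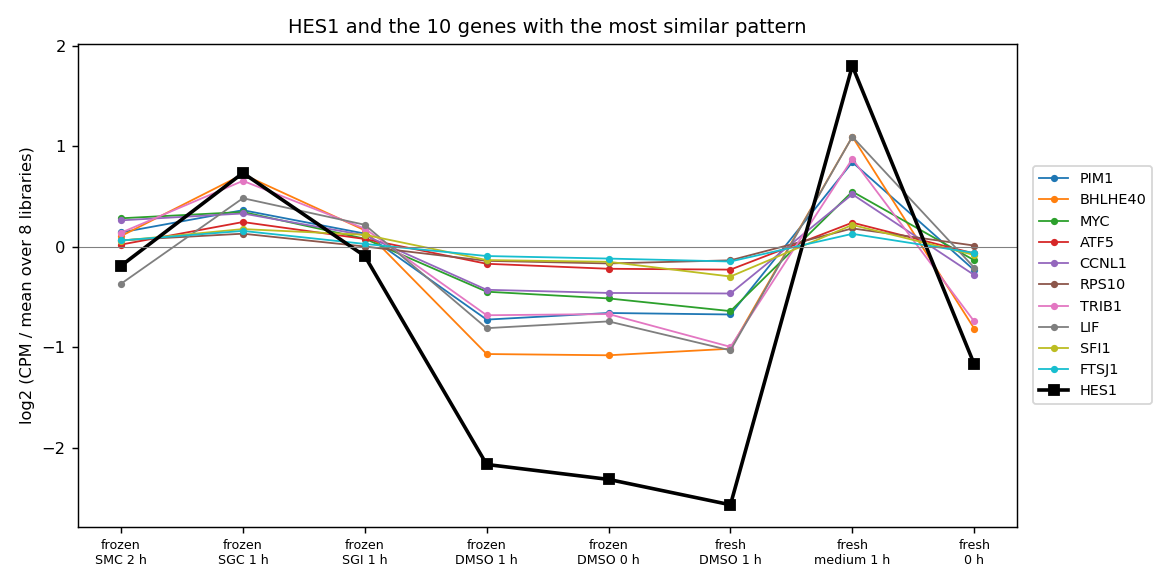
Log2 of CPM over its mean across the 8 libraries for HES1 (black squares) and the 10 genes with the highest correlation to it, by library. HES1 has a wider range than any of the 10, and each of the 10 is below its mean in the 3 libraries with DMSO.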

How the data were processed

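Total RNA came from a miRNeasy extraction and libraries from Illumina protocols, as the labels state. CASAVA 1.9, TopHat 12.0.6, HTSeq and build hg19 are named, with no role, in the submitters' processing notes. How strand, mates and annotation were set was not given in the sources read. The authors deposited whole-number counts and RPKM values per kilobase of a length labelled coding length. Every count is even, with 0 odd, so intervals treat each counted unit as entered as 2. Entries that repeated an identifier with identical counts were kept once and 8 identifiers with differing counts were kept as separate entries, leaving 23354 of 23398.

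Genes were filtered with filterByExpr by state, which kept 15564, scaled by TMM and tested with edgeR 4.0.16 in R 4.3.3 (glmQLFit, robust, glmQLFTest) in a single 3-group fit (residual degrees of freedom 5) and Benjamini-Hochberg adjustment at 0.05 over all genes tested. DESeq2 1.42.0 was an alternative. The procedure was checked on simulated data. A standard error is the absolute log2 change over the square root of F. Single libraries were compared by CPM ratios with exact 95% intervals, with no test. Ratios used for 2-fold counts carried a prior count of 2. Counting intervals leave out any other error: without molecular identifiers, PCR copies are counted as separate molecules.

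Members and lists were chosen with earlier results of these data known. All 10 members, the pathway genes past the threshold and the 10 genes most correlated with HES1 were named by rule; pathway genes named with values that did not pass, and the paired examples BHLHE40 and PIM1, were chosen after their values were seen. No library or value column was left out. The values of 1 pathway gene are not reported here.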

Additional observations from a re-analysis of the deposited data

How the results depend on the processing

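Scaling by RLE size factors or by library totals, dropping the filter on low counts, DESeq2, no robust estimation and leaving out each of the 8 libraries were tried. For the 53 other pathway genes the number called for osmolyte-frozen over DMSO-frozen cells was 26, and 10 to 28 when 1 library was left out, lowest without frozen 0 h DMSO. For DMSO-frozen over fresh cells it was 1, and 0 to 1, and for osmolyte-frozen over fresh cells 26, and 22 to 29. Over all genes the number called was 4684 (2136 to 5254 when 1 library was left out) for osmolyte-frozen over DMSO-frozen, 291 (91 to 311) for DMSO-frozen over fresh and 6236 (5001 to 6080) for osmolyte-frozen over fresh cells. For DMSO-frozen over fresh cells DESeq2 called 488. With library totals alone, 56.4% of the calls for osmolyte-frozen over DMSO-frozen cells were higher, against 45.3% with TMM, and among the pathway genes 11 rose and 12 fell, against 10 and 16. Of 312 values for the members under alternatives, 306 moved by less than 1 SD between libraries of a group and 6 by more, all of HES1 or NOTCH1 with 1 library left out; of 689 for the pathway genes called, 76 lost the threshold and 0 changed direction. Where not said otherwise, the cause was not tested. No paired analysis was possible because the labels give no replicate numbers. Each condition had 1 library. HEY1 and HEY2 did not pass the filter on low counts, and HEY2 was too low to compare at this depth.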
